A study of Mus musculus with 44 samples.

Results

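Embryonic hindgut and embryonic midgut cells of the mouse at E9.5 were compared in 8 RNA-seq libraries, 4 of emHindgut and 4 of emMidgut, out of 44 libraries in the series. The members were chosen by their titles alone, so no measured value entered the choice. Both groups were wild type and came from embryos in which a morula of CD1/G4 background, with mCherry driven by the EF1a promoter, had been aggregated with mouse embryonic stem cells (G4 background, clone F1G4) carrying EGFP under the CAG promoter at Rosa26, and had then been transferred to pseudo-pregnant CD1 females. The sorted cells were EPCAM-positive, GFP-positive and low for mCherry, so they descended from a single male stem cell clone, and they could hold remnants of dying extraembryonic cells. The hindgut cells came from the whole tissue at the posterior tip that contains the hindgut, whereas the midgut had been freed by hand with needles, so region and dissection cannot be told apart. The labels number 4 replicates in each group, each pooled from 4 embryos. The 8 libraries share the enrichment and sort for EPCAM and the low-input poly(A) protocol, which does not keep strand.

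The gut tube is made by definitive endoderm together with descendants of the visceral endoderm, an extraembryonic layer. At this stage the hindgut ends next to the tail bud, the growth zone that lengthens the trunk, in which Wnt and FGF signals are strong and the enzyme Cyp26a1 keeps retinoic acid low. Hox genes of successive paralogue groups are switched on along the axis, with the highest numbered groups at the posterior end, and the Cdx factors act upstream of them. The midgut is the source of the small intestine. Its endoderm uses a network of Foxa, Gata and Hnf factors that is known for driving genes of lipid transport, serum proteins and the later brush border.

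The 8 libraries were of like complexity, and the labels fit the markers in part. Between 13270 and 13596 genes exceeded 1 TPM (a level scaled for gene length and for the total of the library), and the 10 most abundant genes took 5.54 to 6.32% of a library. That share was 5.66% ± 0.109 (SD, n = 4) in emHindgut and 6.0% ± 0.216 in emMidgut (exact two-sided permutation test, p = 0.0286, the smallest p that 4 against 4 allows). Relative depth, read from the deposited coverage, spanned 1 to 3.05 with the shallowest library set to 1. Pearson correlation of log2(TPM + 1) averaged 0.958 within emHindgut, 0.939 within emMidgut and 0.865 between the groups over 12490 genes. EGFP was at 548 to 664 TPM in emHindgut and 701 to 880.2 TPM in emMidgut, and mCherry reached at most 6.61 TPM, in emHindgut replicate 1. Summed over 10 gut endoderm markers (among them Epcam, Krt8 and Cldn6), emHindgut held 1978 to 2493 TPM and emMidgut 5208 to 6352 TPM. None of the 8 blood markers passed the filter on low values.

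Several libraries carried transcripts of other cell types. Dppa3, a gene of primordial germ cells, was at 224 and 183 TPM in emMidgut replicates 1 and 3 and was listed at 0 in the other 6 libraries. Pou5f1, a pluripotency factor that germ cells keep, was at 93.6 and 131 TPM in the same 2 emMidgut libraries and at 0 in emMidgut replicates 2 and 4. The 13 germ cell markers, of which 8 were tested and 1 was called in each direction (Alpl higher and Prdm1 lower in emHindgut), were uneven in the same way. Their sum was 797 and 1001 TPM there, against 149 and 169 TPM in emMidgut replicates 2 and 4 and 137 to 145 TPM in emHindgut. Rhox5, the 1 tested member of 6 genes of extraembryonic origin, was not called, and that list summed to 169 and 112 TPM in the same 2 libraries and to 6.80 TPM or less in the other 6. The paper also names Rhox5 and Trap1a, another member, among genes reported as specific to the germline. mCherry, also on that list, was at most 5.29 TPM in emMidgut. Which cells these transcripts came from was not tested. Low levels of posterior genes stood in emMidgut replicate 1, where Fgf8 was at 30.7 TPM and Cyp26a1 at 22.2 TPM. The part of these transcripts in the differences was not tested, and the counts of calls are also given without these libraries.

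Of 12490 protein-coding genes over 1 TPM in at least 4 of the 8 libraries, 654 were higher in emHindgut (5.24% of those tested) and 1076 were lower (8.61%). A gene was called at a limma adjusted p under 0.05 with a difference over 1 on the log2(TPM + 1) scale. The 4 emHindgut values lay wholly above or below the 4 emMidgut values in 3244 genes (26.0% of those tested), and this held for 575 of the genes called higher and 941 of those called lower. Differences past 3 on the log2 scale were found in 108 genes called higher and 111 called lower. Without emMidgut replicates 1 and 3, 608 genes were called higher and 795 lower. Without emMidgut replicates 1 and 2, the numbers were 701 and 866. In bulk RNA, fewer cells of a type and less RNA per cell cannot be told apart. A gene near 0 in one region entered only when all 4 libraries of the other exceeded 1 TPM. The filter stayed at 4 libraries when any were left out, so such a gene was then no longer tested without a library of its higher region. The gene lists were chosen with earlier results of these data known. Counts of list members that were tested or called are thus descriptions.

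**Figure D1:**
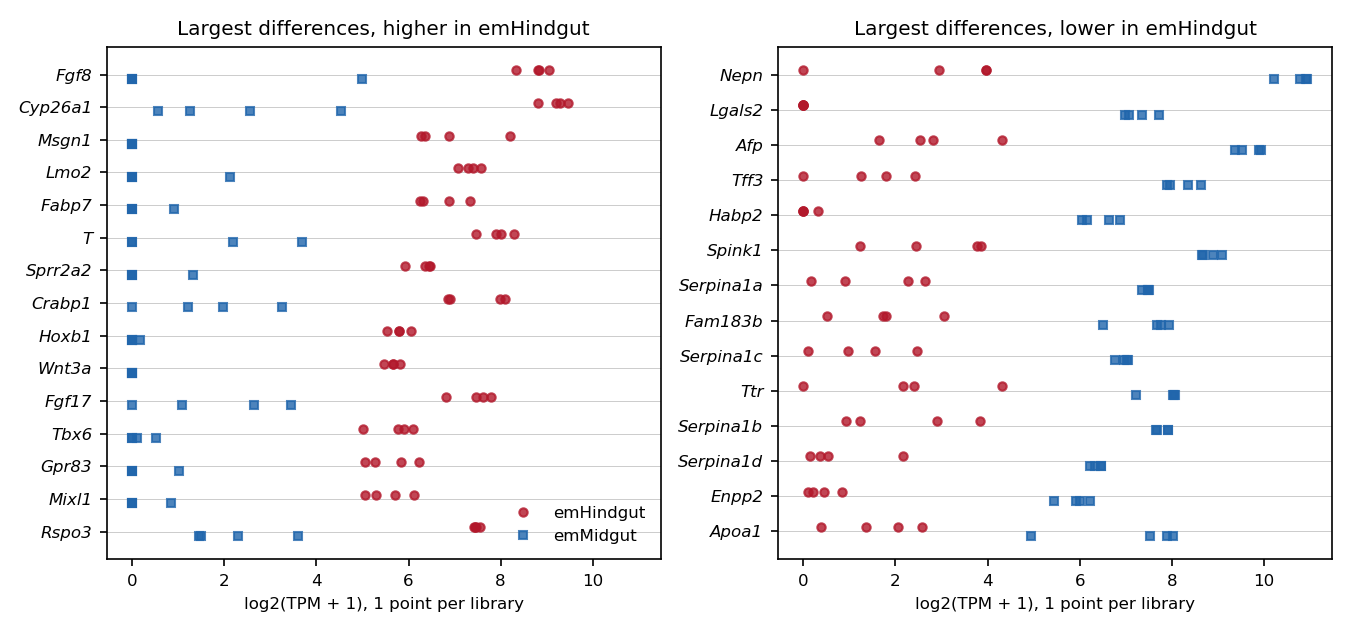
Level of genes with the largest differences in each direction, as log2(TPM + 1) on the horizontal axis, with each point 1 library and the colours marking emHindgut (n = 4) and emMidgut (n = 4). The groups do not overlap for any of the genes shown, by the rule that chose them, and emMidgut replicate 1 is the emMidgut point that stands apart for Fgf8 at 30.7 TPM.

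The largest difference in favour of the hindgut was in Fgf8 (ENSMUSG00000025219, mm10 chr19:45736798-45742915), an FGF ligand made by the tail bud. Fgf8 was at 532, 319, 455 and 451 TPM in emHindgut replicates 1 to 4 and at 30.7, 0, 0 and 0 TPM in emMidgut replicates 1 to 4 (per-library values follow this order throughout). The groups did not overlap, and the difference was 7.51 ± 0.82 (SE) on the log2(TPM + 1) scale (limma adjusted p = 1.1e-05). Fgf17, of the same ligand subfamily, was at 177, 111, 220.1 and 196 TPM in emHindgut and 9.89, 5.30, 0 and 1.12 TPM in emMidgut, a difference of 5.63 (adjusted p = 3.6e-06). Fgf3 was at 34.3, 34.4, 25.4 and 7.88 TPM in emHindgut and was listed at 0 in every emMidgut library. Fgf15, at 1.02 to 23.5 TPM in emHindgut and at 0 in emMidgut, varied most of these ligands among the hindgut libraries.

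Receptors went the other way. Fgfr4 was at 4.23, 2.73, 1.94 and 3.0 TPM in emHindgut and 33.7, 55.1, 63.5 and 50.5 TPM in emMidgut, 17.0-fold higher in the midgut (difference -3.69, adjusted p = 4.2e-07). Fgfr2, the epithelial FGF receptor, was 3.28-fold higher in the midgut (56.8 ± 4.85 against 17.3 ± 5.2 TPM). Of 19 listed ligands and receptors 11 were tested, 5 of them called higher in emHindgut and 2 lower. With any 1 emHindgut library left out, 9 passed the filter and 2 were called higher, and the median went from 0.76 to between -0.41 and 0.06. Members at 0 in emMidgut could not pass the filter in those fits, so the fits do not gauge how stable their differences were. Genes that FGF signalling is known to induce were higher in emHindgut in 11 of the 14 tested, and none was lower. Dusp6, a phosphatase that limits ERK, was at 418, 404, 461 and 508 TPM in emHindgut and 59.5, 46.0, 26.9 and 7.78 TPM in emMidgut (12.8-fold, difference 3.95 ± 0.41). Etv4, an ETS factor downstream of FGF, differed by 4.85, from 45.6 to 70.9 TPM in emHindgut and 0 to 3.44 TPM in emMidgut. Spry4, a feedback inhibitor, was at 17.0 to 25.0 TPM against 0 to 1.48 TPM. Etv5, at 26.3 to 61.5 TPM over all libraries, differed by 0.60 and was not called.

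The transcription factors of the tail bud followed the ligands. T, the Brachyury factor (ENSMUSG00000062327, mm10 chr17:8434423-8442496), was at 239, 177, 258 and 312 TPM in emHindgut and 11.9, 3.55, 0 and 0 TPM in emMidgut. The lowest hindgut library was far above the highest midgut library, and the difference was 6.45 ± 0.62 (adjusted p = 3e-06). Msgn1 (ENSMUSG00000047002, mm10 chr12:11208360-11208972), a factor of presomitic mesoderm, was at 116, 296, 80.7 and 75.7 TPM in emHindgut and at 0 in all 4 emMidgut libraries. Its emHindgut replicate 2 was the highest, and the SD of 104 TPM was large beside the mean of 142 TPM. Tbx6, which specifies paraxial mesoderm, was at 58.9, 67.4, 53.7 and 31.4 TPM in emHindgut and at most 0.444 TPM in emMidgut. Mixl1, a primitive streak factor, was at 32.5 to 68.7 TPM against 0 to 0.790 TPM.

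Msgn1 and Tbx6 are genes of mesoderm and not of gut endoderm, and other mesenchyme markers moved with them in part. Of 12 mesenchyme markers 9 were tested, 5 of them called higher in emHindgut (Prrx1, Twist1, Pdgfra, Pdgfrb and Tcf15) and 1 lower (Vim). Those called higher numbered 2 without emHindgut replicate 1 or 2 (7 tested), and 3 without emHindgut replicate 3 (7 tested), emHindgut replicate 4 (8) or emMidgut replicate 2 (8). Twist1, a mesenchymal factor, was at 11.8, 7.11, 7.18 and 13.1 TPM in emHindgut and at 0 in emMidgut. Vim, the intermediate filament of mesenchyme, was at 13.7 to 39.8 TPM in emHindgut and 96.4 to 177 TPM in emMidgut, and the summed level of the list was 78.8 to 109 TPM against 117 to 189 TPM. Foxf1, a factor of gut mesenchyme, did not pass the filter. Surface ectoderm markers summed to 96.0 to 128 TPM in emHindgut and 11.6 to 20.0 TPM in emMidgut, led by Msx2 and Dlx5 (40.2 to 82.6 and 26.0 to 39.6 TPM in emHindgut), while Krt5 and Krt17 did not pass the filter. Of these 10 markers 5 were tested and 3 called higher. Neural markers summed to 61.0 to 81.1 TPM against 4.89 to 22.2 TPM, with Pax3 at 22.4 to 40.7 TPM in emHindgut and 0 to 2.81 TPM in emMidgut. Only 3 of these 10 markers were tested, and all 3 were called higher. In all 8 libraries 5 were under 1 TPM, with Olig2 and Neurog2 at 0. Of the nephric duct markers 3 of 6 tested were higher in emHindgut (Pax2, Pax8 and Osr1), with sums of 64.2 to 94.4 TPM against 50.6 to 79.0 TPM. None of these was called without emHindgut replicate 1 (4 tested) or 3 (3 tested), and 1 was called without emHindgut replicate 2 or 4 (4 tested each). Of the notochord markers 1 was higher and 2 were lower among 6 tested, and 1 was lower without emHindgut replicate 1 or 2 or any 1 emMidgut library. Egfl7, the 1 endothelium marker tested, was 2.81-fold higher (63.6 ± 18.3 against 22.6 ± 8.45 TPM). The part of other cell types in the hindgut differences was not tested.

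Over the whole tail bud list of 20 genes, 18 were tested and 15 called higher, with a median difference of 4.16. The 3 that were not called were Sall4, Lin28a and Gdf11. Gdf11, a ligand that sets the trunk to tail transition, was at 29.8 to 40.0 TPM in emHindgut and 14.1 to 20.8 TPM in emMidgut, a difference of 0.98, just under the threshold. Sall4, a stem cell factor, was at 162 to 192 TPM against 85.8 to 122 TPM (0.79). Greb1, whose 8 values were among the tightest of the list, was at 199 to 213 TPM in emHindgut and 22.0 to 33.7 TPM in emMidgut. The 2 that did not pass the filter were Nkx1-2 and Fgf4. Members near 0 in emMidgut passed the filter through emHindgut alone, so the median is a description. With any 1 emHindgut library left out, 15 were tested and 12 or 13 called higher. The median was then 3.51 to 3.98.

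**Figure D2:**
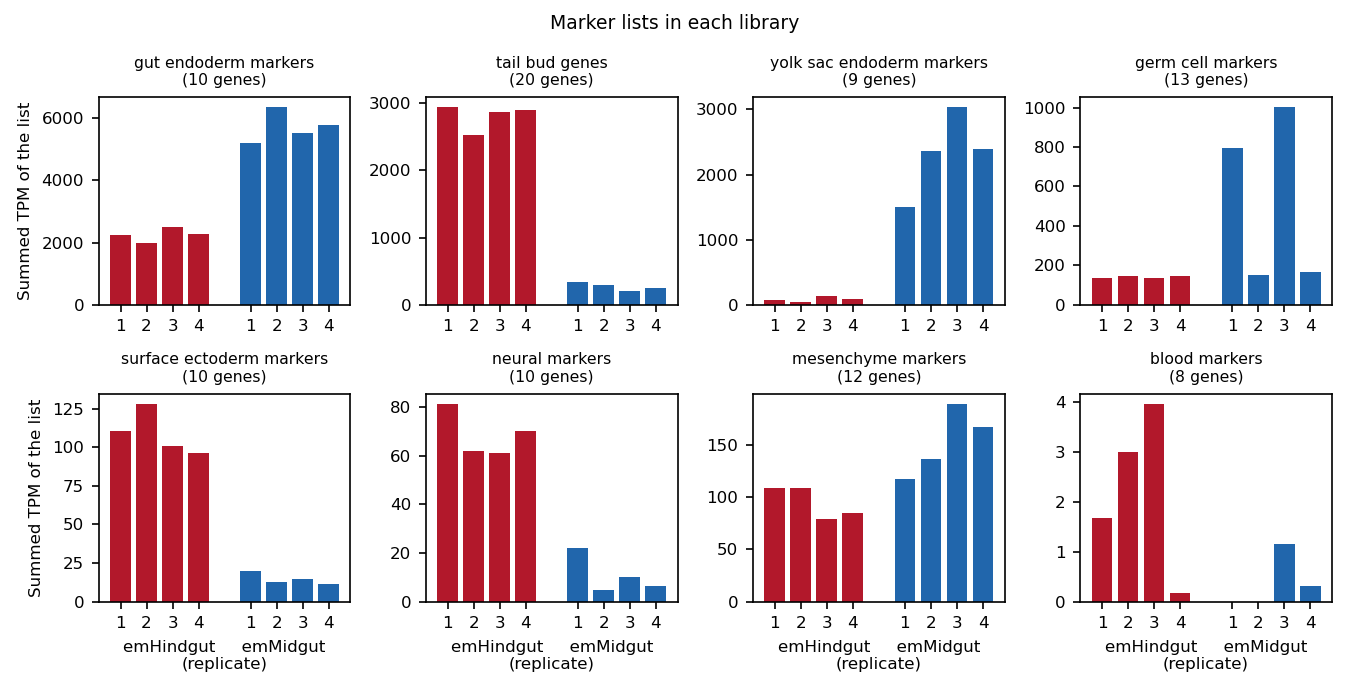
Summed TPM of 8 marker lists, 1 panel a list with its own linear axis from 0, where each bar is 1 library (emHindgut replicates 1 to 4 and emMidgut replicates 1 to 4). Tail bud genes sum to 2530 to 2935 TPM in emHindgut and 205 to 345 TPM in emMidgut, and the germ cell list stands out in emMidgut replicates 1 and 3.

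Wnt ligands were higher in the hindgut. Wnt3a, the canonical ligand of the tail bud, was at 49.5, 43.0, 55.7 and 49.5 TPM in emHindgut and at 0 in the 4 emMidgut libraries (difference 5.65 ± 0.30, adjusted p = 1.3e-08). Wnt5b was at 242, 295, 287 and 225 TPM in emHindgut and 29.0, 7.96, 4.11 and 12.6 TPM in emMidgut, 19.6-fold higher. Wnt5a, a ligand of the non-canonical branch that acts in axis elongation, was at 129 to 149 TPM against 9.91 to 19.3 TPM (9.41-fold). Wnt3 was at 3.62 to 16.3 TPM and was listed at 0 in emMidgut. Of the 21 genes listed for Wnt ligands and their secretion, 9 were tested and 7 called higher. Without emHindgut replicate 1, 2 or 4, 7 were tested and 4 called higher. Wls, the carrier that Wnt ligands need for secretion, was at 202 to 232 TPM in emHindgut and 137 to 221 TPM in emMidgut, and its difference of 0.42 was not called.

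Receptors and secreted modulators of Wnt divided between the regions. Rspo3, a ligand that strengthens Wnt signalling, was at 176, 172, 187 and 172 TPM in emHindgut and 11.1, 3.96, 1.73 and 1.83 TPM in emMidgut (38.1-fold, adjusted p = 1.6e-07). Its receptor Lgr4 was higher in the midgut, at 83.9 to 125 TPM against 22.3 to 44.1 TPM. Among the Frizzled receptors, Fzd10 was higher in emHindgut (22.2 ± 4.30 against 3.39 ± 1.46 TPM) and Fzd2 was higher in emMidgut (50.9 ± 10.2 against 15.7 ± 4.51 TPM). The inhibitors Dkk1 and Sfrp2 were 5.72-fold and 5.26-fold higher in emHindgut. In all, 6 of the 23 receptors and modulators tested were higher in emHindgut and 5 were lower, with a median of -0.15. Without emHindgut replicate 2 or emMidgut replicate 4 the lower ones numbered 3.

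Known targets of the canonical pathway were called higher in 13 of 17 tested, none lower, with a median of 2.69. Axin2, a feedback inhibitor used as a readout of the pathway, was at 10.6, 19.5, 14.6 and 13.1 TPM in emHindgut and 1.71, 1.26, 2.11 and 0.256 TPM in emMidgut (10.8-fold, adjusted p = 7.9e-05). Lef1, a nuclear effector, was at 163 to 274 TPM against 20.0 to 58.1 TPM. Nkd1, another feedback inhibitor, was 19.0-fold higher (54.7 ± 5.71 against 2.88 ± 1.42 TPM). Sp5 was at 19.6 to 30.4 TPM in emHindgut and 0 to 4.16 TPM in emMidgut. The cell cycle regulators Ccnd1 and Myc, which Wnt and other signals induce, were 3.95-fold and 5.78-fold higher.

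The promoters of T and Msgn1 are shown because both genes belong to the group that was highest in the hindgut and because both hold the letters of a TCF/LEF site, the DNA element through which canonical Wnt signals act. The letters searched were CTTTGA and, on the other strand, TCAAAG, in windows from 250 bases before to 50 after each start site of RefSeq on GRCm38.p6. They occurred in 5257 of 32851 windows, which belonged to 4911 of 27025 genes (18.2%), and in 7 of the 16 tail bud genes that had a window (43.8%). The 250 bases before the start are printed 5′ to 3′ along the gene, with the letters in capitals. For T (chr17:8434173-8434422, plus strand) they lie 234 to 229 bases before the start. For Msgn1 (chr12:11208949-11209198, minus strand) they lie 202 to 197 and 143 to 138 bases before the start. A match is a description of the sequence and not of binding.
T: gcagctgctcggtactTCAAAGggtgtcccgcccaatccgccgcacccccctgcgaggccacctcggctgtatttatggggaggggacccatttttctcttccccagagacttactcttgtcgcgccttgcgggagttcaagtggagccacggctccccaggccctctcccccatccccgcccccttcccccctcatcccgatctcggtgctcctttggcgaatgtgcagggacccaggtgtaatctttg
Msgn1: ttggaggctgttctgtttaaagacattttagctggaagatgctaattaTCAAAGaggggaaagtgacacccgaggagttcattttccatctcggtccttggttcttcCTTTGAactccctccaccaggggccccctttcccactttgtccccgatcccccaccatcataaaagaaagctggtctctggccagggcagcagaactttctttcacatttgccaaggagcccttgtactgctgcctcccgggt

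Retinoic acid genes were called in both directions. Cyp26a1 (ENSMUSG00000024987, mm10 chr19:37697798-37701536), the enzyme that degrades retinoic acid, was at 625, 447, 586 and 699 TPM in emHindgut and 22.2, 1.39, 0.468 and 4.86 TPM in emMidgut. The groups were 81.4-fold apart (difference 6.96 ± 0.58, adjusted p = 9.6e-07), and emMidgut replicate 1 was the highest of its group. Crabp1, which binds retinoic acid in the cytoplasm, was at 273, 252, 119 and 114 TPM in emHindgut, where replicates 1 and 2 were higher than 3 and 4, and at 0 to 8.60 TPM in emMidgut. Crabp2, a related carrier, was 2.60-fold higher (454 ± 70.2 against 175 ± 32.5 TPM). Aldh1a2, which makes retinoic acid, was at 17.9 to 37.3 TPM against 8.20 to 16.2 TPM (difference 1.20, adjusted p = 0.0071), and the call was lost when all 16 E9.5 gut libraries were fitted together (adjusted p = 0.0544). Stra6, the retinol importer, was also called higher (1.46), and was no longer called without emHindgut replicate 1 (adjusted p = 0.0704) or without emMidgut replicate 2 (difference 1.00, just under the threshold).

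Other genes of the pathway, the receptors Rara and Rarb among them, were higher in the midgut. Rbp4, the serum carrier of retinol, was at 31.4, 22.6, 45.9 and 28.7 TPM in emHindgut and 586, 1231, 1671 and 1024 TPM in emMidgut (35.1-fold, difference -5.04, adjusted p = 1.3e-08). Rdh10, which oxidises retinol in the first step towards retinoic acid, was at 3.15 to 7.86 TPM in emHindgut and 33.8 to 77.6 TPM in emMidgut (11.5-fold). Rarb, a receptor that is itself a known target of retinoic acid, was at 20.5, 6.92, 20.5 and 2.30 TPM in emHindgut and 66.9, 95.2, 91.4 and 106 TPM in emMidgut. Dhrs3, Rara and Rbp2 were 2.61-fold, 3.79-fold and 8.20-fold higher in emMidgut. Over the 17 genes tested of 23 listed, 6 were called higher in emHindgut and 7 lower.

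The promoter of Cyp26a1 is shown because it was the 1 of the 16 in the tail bud list with a direct repeat of AGTTCA spaced by 5 bases, the form of a retinoic acid response element. The letters searched were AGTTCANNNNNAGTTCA on both strands, and 8 of the 32851 windows (0.0244%) held them. They lie 32 to 16 bases before the start, in capitals (chr19:37697558-37697807, plus strand, RefSeq on GRCm38.p6), and overlapped none of the other motifs searched.
Cyp26a1: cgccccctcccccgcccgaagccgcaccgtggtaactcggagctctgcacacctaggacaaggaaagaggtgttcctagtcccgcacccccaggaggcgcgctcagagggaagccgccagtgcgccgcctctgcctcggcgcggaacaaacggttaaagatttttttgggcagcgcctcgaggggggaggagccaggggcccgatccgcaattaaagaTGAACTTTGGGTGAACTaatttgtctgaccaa

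Notch genes were more often called higher in the hindgut than lower, with 10 of 19 tested called higher, 1 lower and 8 not called (median 2.88). With any 1 emHindgut library left out, 18 were tested and 9 called higher, and the median was 1.83 to 2.02. Without the filter on low values 21 were tested, and the median was 1. Hes7, the oscillating repressor of the segmentation clock, was at 38.1, 29.6, 73.0 and 48.5 TPM in emHindgut and 2.17, 0, 0 and 0 TPM in emMidgut (difference 5.10 ± 0.43, adjusted p = 9.4e-07). The ligand Dll1 was at 55.2, 13.2, 49.5 and 21.8 TPM in emHindgut, a wide spread, and 0.0601 to 3.48 TPM in emMidgut. Jag1, another ligand, was 9.92-fold higher (23.1 ± 5.12 against 2.33 ± 1.02 TPM). Nrarp, a feedback gene, was at 9.42 to 23.6 TPM against 0.0182 to 1.33 TPM. The receptors were opposed, as Notch1 was at 39.4, 21.9, 29.6 and 23.2 TPM in emHindgut and 6.81, 0.0628, 0.938 and 0.809 TPM in emMidgut, while Notch2 was 2.74-fold higher in emMidgut (48.3 ± 7.43 against 17.6 ± 2.93 TPM).

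In the BMP pathway the ligand Bmp4 stood out. Bmp4 was at 151, 230.2, 147 and 149.6 TPM in emHindgut and 20.4, 15.3, 1.65 and 6.12 TPM in emMidgut (15.6-fold, difference 4.21 ± 0.47, adjusted p = 1.3e-05). Of the 23 ligands, receptors and inhibitors of BMP and TGF-beta tested, 4 were called higher and 4 lower. Those called higher fell to 1 without emHindgut replicate 1, and to 2 without emHindgut replicate 4 or emMidgut replicate 3. Tgfbr3, a co-receptor, was 8.85-fold higher in emMidgut. Genes that BMP signals induce were called higher in 6 of 11, none lower. Id1 was at 573 to 873 TPM against 105 to 246 TPM, and Id3 at 812 to 1349.6 TPM against 121 to 334 TPM, about 4-fold each (4.08 and 4.26). Msx1 and Msx2, homeobox genes of the same response, were 10.8-fold and 7.75-fold higher. Id2, the most abundant of the Id genes in emMidgut, was at 733 to 833 TPM in emHindgut and 916 to 1127 TPM in emMidgut, a difference of -0.38 that was not called.

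Hox genes were higher in the hindgut along the whole series of paralogue groups. Of 39 genes listed 38 were tested, 35 were called higher and none lower. The 3 not called were Hoxd4 (difference 0.71, adjusted p = 0.019), Hoxb5 (0.72, 0.15) and Hoxb8 (0.66, 0.26). By paralogue group the median difference was 3.42 in group 1, 2.34 in group 2, 1.48 in group 3 and 1.63 in group 4, between 2.13 and 3.16 in groups 5 to 8, 2.32 in group 9, 4.06 in groups 10 and 11, 4.72 in group 12 and 3.29 in group 13. The lowest medians were thus in groups 3 and 4 and the highest in groups 10 to 12. Every tested gene was called in the A and C clusters (11 of 11 and 9 of 9), 7 of 9 in the B cluster and 8 of 9 in the D cluster.

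**Figure D3:**
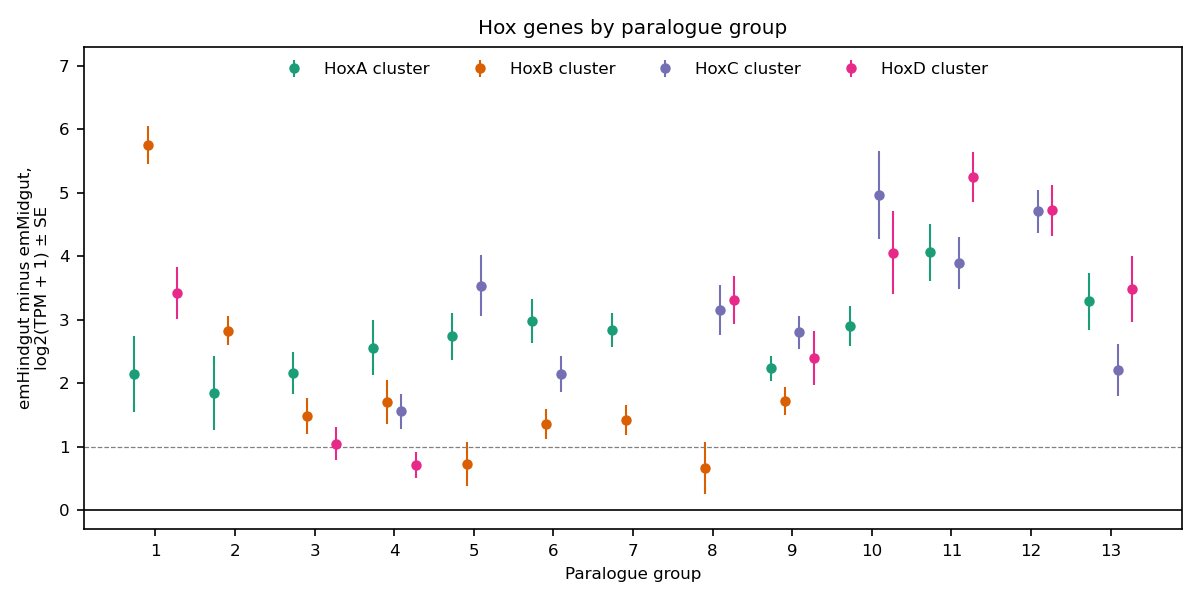
Difference between emHindgut and emMidgut on the log2(TPM + 1) scale (vertical axis, with SE bars, n = 4 against 4) for each tested Hox gene by paralogue group (horizontal axis), coloured by cluster. The dashed line marks a difference of 1, and the 3 genes below it are Hoxd4, Hoxb5 and Hoxb8.

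The most abundant Hox transcripts per length were present in both regions. Hoxa10 was at 292, 319.7, 279 and 289 TPM in emHindgut and 61.8, 67.5, 17.0 and 30.4 TPM in emMidgut (6.68-fold, adjusted p = 9.4e-06). Hoxa7 was at 218 to 246 TPM against 16.1 to 52.6 TPM (6.69-fold). Hoxc10 was at 172, 155, 174 and 169 TPM in emHindgut and 22.0, 12.7, 0 and 1.70 TPM in emMidgut, so that the midgut libraries differed among themselves more than the hindgut ones. In paralogue groups 11 to 13 the midgut values were low. Hoxc12 was at 17.6 to 34.6 TPM in emHindgut and 0 in each emMidgut library. Hoxd11 was at 51.2 to 61.1 TPM against 0 to 2.67 TPM, Hoxd13 at 36.5 to 54.4 TPM against 0 to 7.86 TPM, and Hoxa13, the gene of the cloacal end of the gut, at 9.78 to 14.3 TPM against 0, 0, 0 and 2.55 TPM. In emMidgut the highest Hoxa10 and Hoxc10 values were those of replicates 1 and 2.

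The largest Hox difference was in a gene of the first group. Hoxb1 (ENSMUSG00000018973, mm10 chr11:96365752-96368256), best known from the hindbrain and also expressed in the primitive streak, was at 65.5, 54.5, 54.8 and 45.3 TPM in emHindgut and 0.122, 0, 0 and 0 TPM in emMidgut (difference 5.75 ± 0.30, adjusted p = 1.3e-08). Hoxd1 was at 23.3 to 33.5 TPM against 0.116 to 4.42 TPM.

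Among the Cdx and Evx factors, Cdx4 differed most. Cdx4 was at 451, 509, 437 and 526 TPM in emHindgut and 42.6, 34.4, 3.57 and 2.83 TPM in emMidgut (23.1-fold, difference 5.23 ± 0.61, adjusted p = 2.1e-05), and the higher midgut values were again those of replicates 1 and 2. Cdx2, the factor that defines intestinal identity, was at 248, 242, 272 and 306 TPM in emHindgut and 320.1, 293, 384 and 401 TPM in emMidgut, a difference of -0.38 that was not called. Evx1, a homeobox gene beside the HoxA cluster, was at 45.5 to 52.6 TPM in emHindgut and 0 to 3.48 TPM in emMidgut. Evx2, its counterpart beside the HoxD cluster, was at 2.97 to 5.58 TPM against 0.0980 to 1.55 TPM, and was no longer called without emHindgut replicate 2 (adjusted p = 0.0581) or without emMidgut replicates 1 and 3 (0.14). Cdx1 was low everywhere, at 0.856 to 6.63 TPM against 0 to 1.75 TPM, and its call (adjusted p = 0.033) was lost without emMidgut replicate 2, 3 or 4 (adjusted p 0.0767 to 0.0803).

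Genes outside these pathways were also among the 15 highest. Lmo2, an adaptor of transcription complexes best known in blood, was at 168, 156, 133 and 189.8 TPM in emHindgut and 3.38, 0, 0 and 0 TPM in emMidgut (difference 6.80 ± 0.41, adjusted p = 3.8e-08). Blood markers summed to at most 3.96 TPM in any of the 8 libraries. Fabp7, a fatty acid binding protein of neural progenitors, was at 116, 161, 78.4 and 74.6 TPM in emHindgut and at most 0.887 TPM in emMidgut. Gpr83, a G protein-coupled receptor, was at 32.5 to 73.8 TPM against 0 to 1.04 TPM. Sprr2a2, of a cluster of cornified envelope genes with near-identical copies, was at 59.3 to 86.9 TPM against 0 to 1.52 TPM, and its reads could be shared with those copies.

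The factors on the list of anterior endoderm genes did not all follow that name. Isl1, a LIM homeobox factor, was at 201, 180.4, 244 and 158 TPM in emHindgut and 40.2, 55.9, 5.48 and 28.4 TPM in emMidgut. Mnx1 (5.95-fold), Sox2 (4.06-fold) and Tbx3 (5.76-fold) were likewise higher in emHindgut. Of the 19 listed only 7 were tested. Onecut1, a factor of liver and pancreas progenitors, was at 0 in emHindgut and at 3.84, 15.8, 13.1 and 15.9 TPM in emMidgut. Hhex was at 10.9 to 19.5 TPM in emHindgut and 22.0 to 34.7 TPM in emMidgut (difference -0.93, not called). Pdx1, the pancreatic and duodenal factor, did not pass the filter.

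Factors of the general endoderm network were higher in the midgut in 9 of 17 tested, with 2 higher in the hindgut (median -1.61). Gata4, a factor of the proximal gut, was listed at 0 in the 4 emHindgut libraries and was at 1.81, 12.3, 19.4 and 21.8 TPM in emMidgut (difference -3.52 ± 0.57, adjusted p = 0.00035), with emMidgut replicate 1 the lowest. Isx, an intestine-specific homeobox gene, was at 0 in emHindgut and at 14.3, 46.7, 35.1 and 24.7 TPM in emMidgut. Hnf4a, a master regulator of enterocytes and hepatocytes, was at 0, 0, 0 and 0.308 TPM in emHindgut and 4.27, 6.54, 14.4 and 13 TPM in emMidgut. Nr5a2 was 16.3-fold higher in emMidgut (26.2 ± 6.42 against 1.61 ± 0.261 TPM), Gata6 6.97-fold and Foxa1 6.0-fold. Foxa3 was 3.15-fold higher.

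Foxa2 and Sox9 were not called, and Sox17 and Elf3 were the 2 called higher in the hindgut. Foxa2, which marks endoderm from its formation onward, was at 54.3, 48.6, 44.1 and 52.3 TPM in emHindgut and 30.6, 46.5, 44.6 and 49.4 TPM in emMidgut, values that overlapped (difference 0.23, adjusted p = 0.38). Sox9 was at 17.9 to 27.4 TPM against 27.1 to 43.7 TPM (-0.55, not called). Sox17, a factor of early endoderm, was at 12.7 to 26.5 TPM against 0 to 7.32 TPM (2.43, adjusted p = 0.0046). Elf3 differed by 1.19 (adjusted p = 0.018), and its call was lost without emHindgut replicate 1 (adjusted p = 0.0501), emHindgut replicate 4 (0.0647) or emMidgut replicate 2 (difference 0.83). With any 1 emMidgut library left out, 14 of the endoderm factors passed the filter instead of 17. Those called lower then numbered 5 (without replicate 1) or 6 (without replicate 2, 3 or 4) instead of 9. Without emMidgut replicates 1 and 3, or 1 and 2, 13 passed it and 5 were again called lower, so part of the drop is of genes no longer tested.

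The largest difference in favour of the midgut was in Nepn (ENSMUSG00000038624, mm10 chr10:52388972-52404625), nephrocan, a secreted leucine-rich repeat protein known as a midgut marker. Nepn was at 6.74, 0, 14.7 and 14.5 TPM in emHindgut and 1192, 1765, 1947 and 1911 TPM in emMidgut (difference -7.99 ± 0.62, adjusted p = 4.5e-07). Lgals2 (mm10 chr15:78850860-78855529), a galectin of the gut epithelium, was at most 0.000576 TPM in emHindgut and at 134, 125, 162 and 209 TPM in emMidgut (-7.28 ± 0.26). In both genes every midgut library was far above every hindgut library.

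More genes of the same size of difference had other functions. Enpp2, which makes the signalling lipid lysophosphatidic acid, was at 0.783, 0.0696, 0.360 and 0.159 TPM in emHindgut and 63.5, 42.5, 59.7 and 73.7 TPM in emMidgut (174-fold). Habp2, a secreted serine protease that binds hyaluronan, was at most 0.240 TPM in emHindgut and at 64.9 to 116 TPM in emMidgut. Fam183b was at 0.436 to 7.34 TPM against 89.9, 246, 215 and 202 TPM, with emMidgut replicate 1 the lowest of its group. Prdm1, a repressor of the fetal intestinal epithelium that also specifies germ cells, was at 6.61 to 9.12 TPM in emHindgut and 66.0 to 101 TPM in emMidgut (9.91-fold), and was high in all 4 midgut libraries.

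Apolipoproteins and serum proteins were lower in the hindgut in 17 of 20 tested, none higher, with a median of -2.66. Afp (ENSMUSG00000054932, mm10 chr5:90490737-90508907), the fetal serum carrier, was at 4.83, 2.13, 18.9 and 6.05 TPM in emHindgut and 662, 734, 951 and 978 TPM in emMidgut (104-fold, difference -6.85 ± 0.39, adjusted p = 2.2e-08). Ttr, the carrier of thyroid hormone and retinol-bound Rbp4, was at 3.49, 0, 18.9 and 4.28 TPM in emHindgut and 148, 264, 268 and 261 TPM in emMidgut. Apoa1, the main protein of HDL, was at 0.302 to 4.94 TPM in emHindgut and 29.7, 183, 236 and 259.5 TPM in emMidgut, where replicate 1 was far below the rest. Apoe was at 27.4, 10.3, 10.0 and 12.5 TPM against 258, 306, 498 and 306 TPM (22.7-fold). Vtn, vitronectin, was at 6.91, 8.92, 15.0 and 15.3 TPM in emHindgut and 262, 319, 294 and 300.3 TPM in emMidgut (25.5-fold, adjusted p = 7.1e-09).

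Smaller values on the list followed the same direction. Apob was at 0 to 1.09 TPM against 29.7 to 44.6 TPM. Ambp, the precursor of a microglobulin and a protease inhibitor, was 6.84-fold higher in emMidgut (149.9 ± 42.8 against 21.9 ± 7.81 TPM). Fgb, a fibrinogen chain, was at 0 to 0.635 TPM against 5.77 to 12.9 TPM, and Cubn, an endocytic receptor of yolk sac and gut, at most 0.00448 TPM against 3.48 to 8.17 TPM. Alb, the adult serum carrier, did not pass the filter, and reached 3.16 TPM in its highest emMidgut library. Serpina1a to Serpina1d, copies of the alpha-1-antitrypsin gene, had emMidgut means between 81.7 and 221 TPM and emHindgut means between 1.08 and 5.48 TPM, and reads could be split among these near-identical copies.

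Of these genes several are also markers of yolk sac endoderm and of the liver bud. The yolk sac list summed to 41.4 to 129.6 TPM in emHindgut and 1495 to 3032 TPM in emMidgut, and the liver bud list to 15.4 to 61.9 TPM and 1023 to 1466 TPM. Among the yolk sac markers, Apoa4 did not pass the filter, and neither Amn (difference -0.47) nor Lrp2 (0.13) was called. mCherry, the label of extraembryonic cells, was at 5.29, 0, 0 and 0 TPM in emMidgut, against a mean of 7296 TPM in exMidgut. The part of other cells in these differences was not tested.

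The promoters of Afp and Vtn are shown as 2 genes of this group that hold the core letters of an HNF1 site, an element known from liver and gut genes. The letters searched were GTTAAT and ATTAAC, and 2332 windows held them, in 2228 of the 27025 genes (8.24%). In the serum protein list 8 of 21 genes with a window had a match, in the tail bud list 2 of 16. For Afp (chr5:90490464-90490713, plus strand) the match lies 105 to 100 bases before the start, and for Vtn (chr11:78498870-78499119, plus strand) 112 to 107 bases before it, with capitals as above and both read from RefSeq on GRCm38.p6.
Afp: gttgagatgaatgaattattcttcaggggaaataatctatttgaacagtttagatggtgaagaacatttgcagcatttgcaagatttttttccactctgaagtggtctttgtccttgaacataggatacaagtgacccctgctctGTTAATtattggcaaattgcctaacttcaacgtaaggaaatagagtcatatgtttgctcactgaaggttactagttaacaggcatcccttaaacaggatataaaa
Vtn: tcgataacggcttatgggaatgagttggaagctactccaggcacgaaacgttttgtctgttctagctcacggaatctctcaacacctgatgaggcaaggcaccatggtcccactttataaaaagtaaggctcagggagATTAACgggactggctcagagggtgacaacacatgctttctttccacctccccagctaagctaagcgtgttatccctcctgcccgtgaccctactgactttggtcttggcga

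Genes of the enterocyte and its brush border were lower in the hindgut in 9 of 15 tested, none higher. Tff3, a trefoil peptide of the gut epithelium, was at 1.37, 2.47, 0 and 4.36 TPM in emHindgut and 238, 248, 397 and 327 TPM in emMidgut (difference -6.85 ± 0.39, adjusted p = 2.4e-08). Muc13, a membrane mucin, was listed at 0 in emHindgut and was at 38.0, 13.8, 34.3 and 25.3 TPM in emMidgut. Dpp4, a peptidase of the apical membrane, was 9.75-fold higher in emMidgut (73.1 ± 12.2 against 7.5 ± 3.88 TPM). Fabp1, a fatty acid binding protein, was at 11.1 to 50.4 TPM against 122 to 249 TPM. Espn and Pls1, actin bundlers of microvilli, were 5.97-fold and 4.39-fold higher in emMidgut. Vil1, another bundler of the microvillus, had values of 9.32 to 25.8 TPM in emHindgut and 3.06 to 23.6 TPM in emMidgut that overlapped.

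Epithelial junction genes were lower in the hindgut too, in 16 of 23 tested. Cdh1, E-cadherin, was at 63.6, 49.5, 69.2 and 66.9 TPM in emHindgut and 140.4, 154, 143 and 167 TPM in emMidgut (2.43-fold, adjusted p = 9.4e-06). Epcam, on which both groups were sorted, was at 344, 331, 410.1 and 417 TPM in emHindgut and 849, 892, 793 and 791 TPM in emMidgut (2.21-fold, difference -1.15). F11r, a junctional adhesion molecule, was 6.13-fold higher in emMidgut (435 ± 47.4 against 71.0 ± 17.5 TPM), Cldn3 3.59-fold and Cldn6 2.16-fold. Ocln differed by -1.18, and without emHindgut replicate 1 by -0.99, short of the threshold. Krt8 and Krt18, keratins of simple epithelia, were 2.73-fold and 3.44-fold higher in emMidgut.

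Both junction genes that were higher in the hindgut were cadherins of mesenchymal and neural cells. Cdh2, N-cadherin, was at 98.5, 90.2, 92.2 and 83.4 TPM in emHindgut and 18.7, 11.9, 9.10 and 17.9 TPM in emMidgut (6.33-fold, adjusted p = 8.4e-07). Cdh11 was at 32.8, 42.4, 41.5 and 47.6 TPM in emHindgut and 1.35, 0.376, 0.133 and 0.354 TPM in emMidgut (74.4-fold, difference 4.81). The 2 groups were fully separated for both cadherins.

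**Figure D4:**
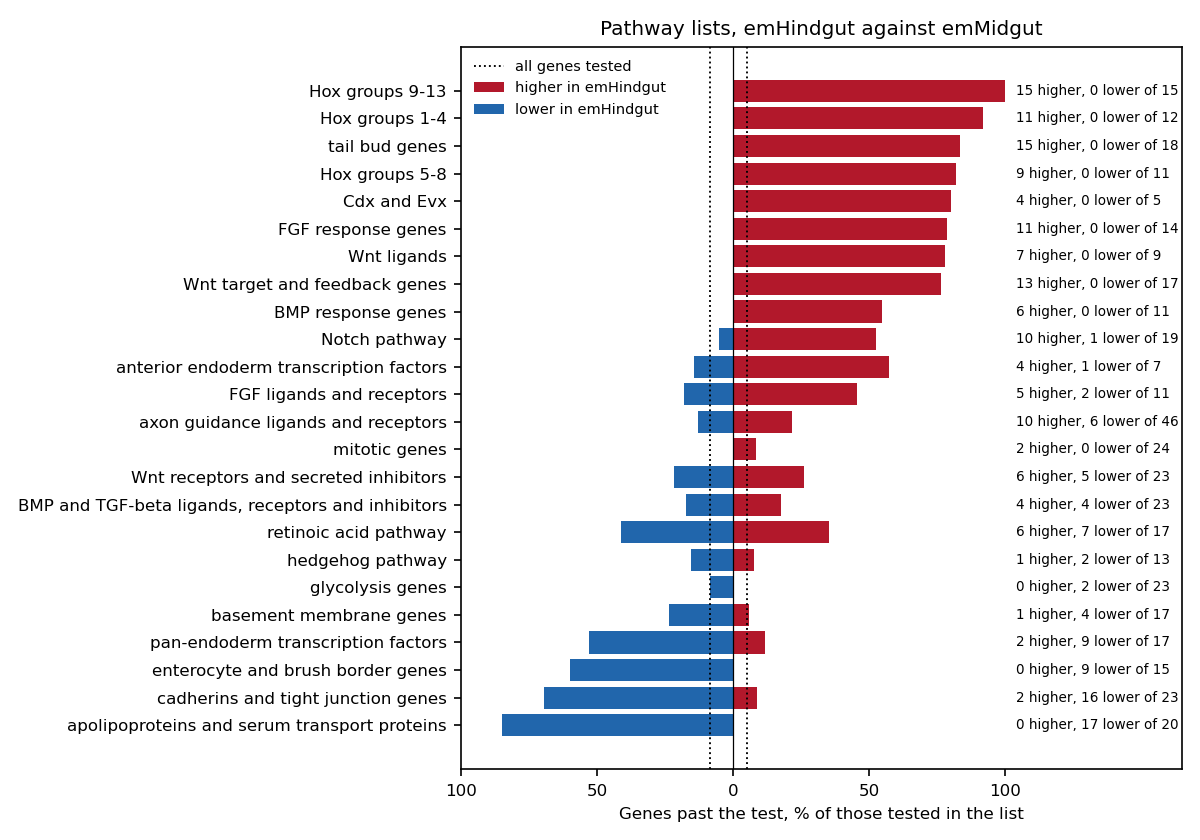
Percent of tested members of each gene list that were called higher (to the right) or lower (to the left) in emHindgut, with the dotted lines at the share over all 12490 genes (5.24% higher, 8.61% lower). The bars of the Hox, tail bud and Wnt target lists reach far to the right and those of the serum protein, enterocyte and junction lists far to the left.

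Other lists had few calls or calls in both directions. The hedgehog ligands of the endoderm, Shh and Ihh, were 2.48-fold and 7.38-fold higher in emMidgut, with Shh at 45.4 to 86.6 TPM in emHindgut and 131 to 161 TPM in emMidgut. Ptch1, the receptor and target of the pathway, was at 44.0 to 62.6 TPM against 21.8 to 35.1 TPM, a difference of 0.96 that was just under the threshold. Gas1, a co-receptor, was the 1 gene of the 13 tested that was called higher (1.17, adjusted p = 0.033), and its call was lost without any 1 of 5 libraries (emHindgut replicates 1, 3 and 4, emMidgut replicates 1 and 2), where the adjusted p was 0.0508 to 0.103. Among axon guidance genes 10 of 46 were called higher and 6 lower. Slit2, a repulsive ligand, was 3.97-fold higher in emHindgut (25.5 ± 4.77 against 6.42 ± 1.64 TPM), and its receptor Robo2 was 2.71-fold higher in emMidgut (124 ± 27.4 against 45.9 ± 5.03 TPM). The netrin receptors Unc5b and Unc5c were 4.84-fold and 8.72-fold higher in emHindgut. Sema3c and its receptor Nrp2 were 7.36-fold and 3.49-fold higher in emMidgut.

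Extracellular matrix, metabolism and cell cycle genes were described by 3 more lists. Of 17 basement membrane genes, Lamb3, Col4a1, Col4a2 and Sparc were lower in the hindgut and Nid2 was higher. Lamb3, a chain of laminin-332, was 10.1-fold higher in emMidgut (23.3 ± 5.85 against 2.31 ± 1.49 TPM). Of 23 glycolysis genes none was called higher and 2 were called lower, a share near the 8.61% of all genes tested. These were Slc2a1 (2.44-fold higher in emMidgut) and Pfkp (3.11-fold). The Pfkp call was lost without emMidgut replicates 1 and 3 (adjusted p = 0.0775). Gapdh was at 3053 to 3693 TPM in emHindgut and 3128 to 4319 TPM in emMidgut and was not called. Of 24 mitotic genes 2 were called higher (5.24% of all genes tested were), Bub1 and Plk1, with a list median of 0.49. Bub1, a spindle checkpoint kinase, was at 77.8 to 99.2 TPM against 23.5 to 51.8 TPM. Plk1 differed by 1.02, and without emHindgut replicate 1 or 4 or emMidgut replicate 1 or 3 by 0.85 to 0.97.

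The same regions were sampled from cells of extraembryonic origin, which the labels name exHindgut and exMidgut (n = 4 each). They come from the host embryo of the aggregation, are mCherry-positive and carry another genetic background. By the paper they can be male or female, whereas the embryonic cells are male. Origin, background and sex thus cannot be told apart. In that comparison 555 of 12331 genes were called higher in exHindgut (4.50%) and 836 lower (6.78%). Of the 654 genes higher in emHindgut 575 were tested there, 550 of these had the same sign (95.6%, 95% Wilson interval 93.7 to 97.0, against 50.3% of all genes tested there), and 334 were called in the same direction and 0 in the opposite one. Of the 1076 genes lower in emHindgut 1016 were tested, 979 had the same sign (96.36%, 95.02 to 97.35, against 49.7%), and 564 were called in the same direction and 1, Fgl1, in the opposite one. The intervals cover the counting of genes only, and genes are not independent replicates. The median difference of those genes was 1.47 in extraembryonic and 1.73 in embryonic cells for the higher ones, and -1.31 and -1.58 for the lower ones. Values that chose the genes came from the embryonic side, and the 2 comparisons share no library. They do share the way the regions were dissected, so region and dissection cannot be told apart here either. Whether they share pools of embryos is not in the labels.

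**Figure D5:**
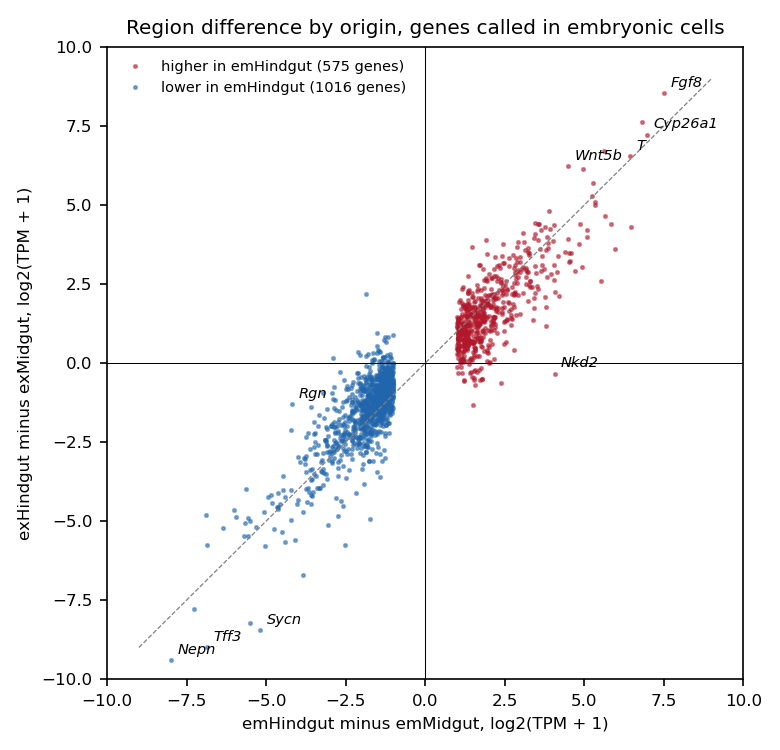
Difference between hindgut and midgut in embryonic cells (horizontal axis) against that in extraembryonic cells (vertical axis), both on the log2(TPM + 1) scale, for the 575 genes called higher and the 1016 called lower in embryonic cells that were tested in both. Most points lie in the quadrants of equal sign, with Nkd2 close to 0 on the vertical axis (-0.34).

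Fgf8, T and Cyp26a1 held their differences in extraembryonic cells. The difference was 8.55 for Fgf8, 6.56 for T and 7.23 for Cyp26a1, and on the midgut side -9.41 for Nepn, -5.77 for Afp and -8.24 for Apoa1. Afp was at a mean of 6588 TPM in exMidgut and 831 TPM in emMidgut, and 186 TPM in exHindgut and 7.99 TPM in emHindgut. Of the 36 Hox genes tested in extraembryonic cells, 27 were called higher. Several mesodermal and posterior genes had low means there. Cdx4 was at 4.07 ± 8.09 TPM in exHindgut (interaction 4.22, adjusted p = 0.20), Msgn1 at 28.2 ± 24.2 TPM (3.05, 0.46) and Tbx6 at 12 ± 8.37 TPM (2.93, 0.21), and none of these passed the test of the difference between origins.

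That test, an interaction of origin and region fitted over the 16 libraries, passed for 13 of 13473 genes (0.0965%), of which 7 had the larger hindgut minus midgut difference in embryonic cells and 6 the smaller. Hoxb1 was at 55.0 ± 8.25 TPM in emHindgut and 0.849 ± 1.01 TPM in exHindgut, and at or near 0 in both midgut groups (interaction 5.04, adjusted p = 0.00012). Cdh11 was at 41.1 ± 6.14 TPM in emHindgut and 1.77 ± 1.12 TPM in exHindgut (3.76, 0.0058). Hoxd12 was at 34.5 ± 7.55 against 1.88 ± 0.998 TPM, and Nkd2 at 35.9 ± 18.5 against 1.59 ± 1.98 TPM. In these 4 genes the embryonic hindgut was the group that stood apart.

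In other genes a midgut group, or the extraembryonic hindgut, was the one apart. Rgn, an enzyme of vitamin C synthesis in mice, was at 5.87 ± 4.09 TPM in emHindgut and 109 ± 6.76 in emMidgut, and at 14.6 ± 2.31 and 38.3 ± 10.5 TPM in exHindgut and exMidgut (interaction -2.88, adjusted p = 0.0065). Stmn2, a tubulin-binding protein of neurons, was at 25.1 ± 19.6 TPM in emMidgut and 0.975 ± 1.95 TPM in exMidgut. Sycn, a secretory granule protein of the exocrine pancreas, was at 64.3 ± 35.2 TPM in emMidgut and 372 ± 151 TPM in exMidgut and was near 0 in both hindgut groups (3.27, 0.032). Trf, transferrin, was at 75.5 ± 9.38 TPM in emMidgut and 246 ± 73.0 in exMidgut, and Clu at 149.6 ± 23.4 and 239.8 ± 96.1 TPM. Abhd12b was at 12.1 ± 7.82 TPM in exHindgut and was listed at 0 in the 8 embryonic libraries. Fgl1, a hepatocyte-secreted protein, was higher in emMidgut than in emHindgut (5.91 ± 1.88 against 1.39 ± 2.14 TPM) and lower in exMidgut than in exHindgut (1.02 ± 1.35 against 6.74 ± 0.433 TPM). The embryonic side of Fgl1 was no longer called without emHindgut replicate 1 or 2 or emMidgut replicate 2 (adjusted p 0.0501 to 0.0562). Ak1 and Snrpn had interactions of -1.53 and -0.99. With a pseudocount of 0.1 none of the 13 passed.

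At E13.5 the later intestine was sampled as colon and small intestine of embryonic origin (emColon and emSI, n = 3 each, no shared library). These cells were wild type and sorted for EPCAM and GFP without the gate on low mCherry. The E9.5 regions were not traced to these organs, so emColon need not descend from emHindgut alone. Each library came from the organ of an individual embryo, and the extraembryonic cells of the host embryos were p53 knockouts. Stage thus cannot be told apart from sort, pooling and host. Few genes were called in that comparison, 25 of 11239 higher in emColon (0.222%) and 28 lower (0.249%), with a median over all genes of -0.15. The total was 7 without emSI replicate 1, 9 without emSI replicate 2, 22 without emSI replicate 3, 32 without emColon replicate 3 and 34 without emColon replicate 1. Of the genes higher in emHindgut 373 were tested at E13.5, and 135 had the same sign (36.2%, 95% Wilson interval 31.48 to 41.19, which holds the 40.5% of all genes). Of those lower in emHindgut 907 were tested, and 419 had the same sign (46.2%, 42.97 to 49.45, against 59.5%).

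Of the genes called at both stages, 13 had the same direction and 18 the opposite one. Hoxa10 was at a mean of 29.4 TPM in emColon and 0 in emSI (difference 4.81, adjusted p = 0.022), and Hoxb9 at 30.8 TPM and 0 (4.89, 0.017). Ly6a, a GPI-anchored surface protein, was at 119 TPM in emColon and 0 in emSI, and at 42.3 ± 13.9 TPM in emHindgut and 6.86 ± 4.63 TPM in emMidgut. On the other side Nepn was at 0.431 TPM in emColon and 105 TPM in emSI (-6.25, 0.0028), Lgals2 at 171 and 2460.5 TPM, and Gata4 at 0 and 51.6 TPM.

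Serum protein genes were among those that turned. Afp was at 548 TPM in emColon and 103 TPM in emSI (2.57, adjusted p = 0.016), the reverse of its order at E9.5, and Apoe at 527 and 69.8 TPM (2.94, 0.010). Spink1, a trypsin inhibitor, was at 7.98 ± 6.03 TPM in emHindgut and 456 ± 67.3 TPM in emMidgut at E9.5, and at 833 TPM in emColon and 72.1 TPM in emSI at E13.5 (3.69, 0.0013). Postn, a matrix protein of mesenchyme, was at 52.6 ± 27.8 TPM in emMidgut and 4.68 ± 4.59 TPM in emHindgut, and at 350.0 TPM in emColon and 14.6 TPM in emSI. Id3, higher in emHindgut at E9.5, was at 0 in emColon and 179 TPM in emSI (-7.38, 0.00093).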

How the data were processed

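RNA was measured in 8 libraries of embryonic E9.5 gut cells, with 8 extraembryonic E9.5 and 6 embryonic E13.5 libraries for comparison. TPM values per gene were made by the authors, with cutadapt 4.1 for trimming, STAR 2.7.9a for alignment to mm10 plus both reporter genes, and StringTie 2.0.6 on the GENCODE VM23 annotation for quantification, and were then deposited. FPKM values and read coverage from the same StringTie tables, also as deposited, served as an alternative and for relative depth, since absolute depth is not in these values.

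Here TPM was summed per gene ID, restricted to protein-coding genes off the Y chromosome (GENCODE vM21 annotation, 32235 of 32287 IDs matched), filtered at over 1 TPM in at least 4 of 8 libraries (3 at E13.5), and tested as log2(TPM + 1) in limma 3.58.1 with a trended prior, two-sided, with Benjamini-Hochberg adjustment over all genes tested. Differences on that scale understate the change of low genes. Calls needed an adjusted p under 0.05 and a log2 difference over 1, the interaction an adjusted p under 0.05 alone. On simulated data the fit recovered 82% of genes changed by 1.5 and 93% of those changed by 3 on the log2 scale. It made 5 false calls among 12294 genes, which include the 200 changed. Each gene was drawn independently from a normal distribution with an SD pooled over the groups. Shared deviations of genes and libraries with transcripts of other cells were not simulated, so these rates hold for that setting only. Library measures were compared with an exact two-sided permutation test.

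The libraries were chosen by their titles, whereas the gene lists and the genes in them were chosen with earlier results of these data known. Named genes were the 15 largest non-overlapping calls in each direction, up to 4 called and 2 uncalled genes of each list, the Hox, Cdx and Evx genes, the markers and the reporters; other list members were named after their values were seen. By the paper, each E9.5 gut library was made from a small number of cells sorted out of a pool of embryos, and the protocol amplified little RNA. The p-values thus measure the spread between libraries, in which pool, cells drawn and amplification cannot be told apart. Promoter windows were those of RefSeq on GRCm38.p6. The remaining libraries of the series were not used here. A few genes that met these rules are not reported here.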

Additional observations from a re-analysis of the deposited data

Results flagged for a closer look

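In groups of 4 libraries, 14 of 334 groups looked at held a value whose gap to the rest passed the 95% critical value of Dixon's test for 4 samples, where chance gives about 1 in 20. Of the emHindgut libraries, replicate 2 held the highest Bmp4 (230.2 TPM) and the lowest Sp5 (19.6 TPM) and Cldn3 (24.0 TPM). Apoe was highest in emHindgut replicate 1 (27.4 TPM), Pls1 in replicate 3 (25.5 TPM) and Serpina1d in replicate 4 (3.50 TPM). Of the emMidgut libraries, replicate 1 held the highest Fgf8 (30.7 TPM), Notch1 (6.81 TPM) and mCherry (5.29 TPM) and the lowest Ttr (148 TPM). Serpina1a (161 TPM) and Stra6 (0.936 TPM) were lowest in emMidgut replicate 2. Wls (220.9 TPM) and the share of the 10 most abundant genes (6.32%) were highest in emMidgut replicate 4.

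The region difference departed between embryonic and extraembryonic cells in 13 genes by the interaction test in limma, each given as the embryonic minus the extraembryonic difference on the log2(TPM + 1) scale. It was positive for Hoxb1 (5.04), Nkd2 (4.41), Cdh11 (3.76), Hoxd12 (3.27), Sycn (3.27), Trf (2.19) and Clu (1.46). For Sycn, Trf and Clu, which were higher in midgut, a positive value means that the midgut excess was the larger one in extraembryonic cells. It was negative for Fgl1 (-4.05), Stmn2 (-3.85), Abhd12b (-3.48), Rgn (-2.88), Ak1 (-1.53) and Snrpn (-0.99). Origin, genetic background and sex cannot be told apart in these values, and Rgn lies on the X chromosome.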

How the results depend on the processing

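Between emHindgut and emMidgut the total of 1730 calls stayed within 1.5 times under every alternative (1348 to 1858). Leaving out 1 replicate gave 1410 to 1644 calls, 480 to 658 of them higher and 865 to 1025 lower. Without emMidgut replicates 1 and 3, an alternative chosen after seeing the data, 1204 of 1403 calls were shared with the 1730, and without replicates 1 and 2 it was 1281 of 1567. No named gene reversed in a setting in which it was tested. Genes near 0 in one region were not tested when a library of the other region was left out, so those settings do not cover them. Same-numbered samples did not deviate together (correlations -0.007 to 0.037), and a fit with the replicate block called 1744 genes, 1681 of them shared. Between exHindgut and exMidgut, leaving out 1 replicate gave 366 to 641 genes called higher, the lowest without exHindgut replicate 4. For the interaction, limma called 0 genes with a pseudocount of 0.1 (0 higher, 0 lower, against 1052 genes at an unadjusted p under 0.05 with a pseudocount of 1), 8 without the filter (2 lower), 8 with the replicate block (3 lower) and 3 to 19 leaving out 1 replicate (2 to 13 higher, 1 to 6 lower), the fewest without emMidgut replicate 2, emMidgut replicate 3 or exHindgut replicate 2. At E13.5, emColon against emSI gave 3 calls without the filter (0 higher, 3 lower, against 1178 genes at an unadjusted p under 0.05 with the filter), 15 higher with a pseudocount of 0.1, and 7 to 36 leaving out 1 replicate (5 to 17 higher, 1 to 26 lower). The cause was not tested. Absolute depth is not in TPM, so a gene listed at 0 has no counting limit here, and 4 pools a group bound the precision.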

Other observations

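Long noncoding genes beside the homeobox genes, which the comparison of protein-coding genes leaves out, also differed between the regions when all gene types were fitted. Evx1os was at a mean of 94.7 TPM in emHindgut and 2.03 TPM in emMidgut (difference 5.37 on the log2(TPM + 1) scale, limma adjusted p = 2.4e-06). Hoxaas3 was at 608 against 32.5 TPM (4.49), Hoxa11os at 372 against 28.6 TPM (4.14) and Hoxd3os1 at 117 against 12.4 TPM (3.27). Hotair, which lies in the HoxC cluster, was at 15.2 TPM in emHindgut and was listed at 0 in emMidgut. Hoxb5os was at 356 against 59.0 TPM (2.61), although Hoxb5 itself was not called. In the other direction Halr1, beside the HoxA cluster, was at 13.49 against 27.7 TPM (-1.06, adjusted p = 0.0315), and Hnf1aos1 was at 0.0623 against 10.3 TPM (-3.33). In all 144 genes of types other than protein-coding were called. Their share of those tested is not given, so this count cannot be set beside that of protein-coding genes. The libraries do not keep strand, so reads of an antisense gene and of its partner cannot be told apart.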
